A study of Drosophila melanogaster with 4 samples.

Results

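The regions described here are 1027 H3K27ac clusters on chromosome arm 3L of the fruit fly, taken outside the pericentromere. A cluster is a stretch of sequence that the authors called as enriched over input. Clusters of the first ChIP replicate that started before position 22543558, which leaves out the last 2 Mb at the centromere end, were taken if they shared at least 1 bp with a cluster of the second replicate on the same stretch. Of 1126 such clusters in replicate 1, 1027 (91.2%, 95% Wilson interval 89.4 to 92.7) were shared, against 91.9% over all sequences, and this overlap was part of how the regions were chosen. In replicate 2, 1022 of 1133 clusters of the same stretch (90.2%) touched one of replicate 1, against 90.4% over all sequences. The whole lists held 5898 clusters in replicate 1 and 6056 in replicate 2. The limit falls in a gap of the calls. The last clusters before it started at 22466339 (score 0.61) in replicate 1 and 22466224 (0.79) in replicate 2, the next ones started at 22563549 (0.66) and 22563501 (0.70), and 24 and 25 clusters lay beyond it.

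Wild-type Oregon-R flies (Oregon-R-modENCODE), mixed adults grown in population cages, gave the head nuclei from which chromatin was made. There were 4 libraries, 2 from ChIP with an Active Motif antibody to H3K27ac and 2 from input, with no treatment. Heads hold many cell types, so a cluster can come from any of them, and how many cells or which types carry it cannot be told apart. Nothing in the labels says that the replicates came from separate collections, so their spread may be technical. Read depth is unknown, and the Wilson intervals reflect the number of clusters counted and no other error.

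H3K27ac is acetylation of histone H3 at lysine 27. In flies the acetyl group is placed by the CBP homologue Nejire and marks active promoters and enhancers, while Polycomb repression methylates the same lysine, so that a single histone tail cannot carry both marks. Narrow peaks are typical of single promoters and enhancers, and long domains are seen where many active elements lie side by side. 3L and 3R are the arms of the metacentric chromosome 3, and each passes into heterochromatin toward the centromere. Genes under the clusters are not named, since gene positions on release 5 of the genome, which the files use, were not used here.

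Clusters covered 23.3% ± 0.21 of 3L outside the pericentromere (SD, n = 2 replicates, as for every value given with ± here). This was 5.22 Mb in replicate 1 and 5.29 Mb in replicate 2, out of 22.5 Mb. On 2L, without its last 2 Mb, 21.1% was covered in replicate 1 and 21.3% in replicate 2, and on 3R, without its first 2 Mb, 22.1% was covered in each. 3L thus lay above 2L by 2.09 ± 0.03 percentage points and above 3R by 1.20 ± 0.19, in both replicates. With 2 values an arm, the two-sided exact permutation test gave p = 0.333 for each difference, which is the smallest it allows. The margin over 3R was 0.30 when the left-out end was 1 Mb in place of 2 Mb.

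3L also held more clusters per Mb than 2L and 3R in both replicates. There were 49.9 clusters per Mb on 3L in replicate 1 and 50.3 in replicate 2, against 46.4 and 49.0 on 2L and 48.3 and 48.4 on 3R. The differences of 2.41 ± 1.598 and 1.73 ± 0.16 clusters per Mb each had an exact permutation p = 0.333, and with 1 Mb left out 3L fell below 3R by 0.50 clusters per Mb. Median widths were 3006 bp and 2965 bp on 3L, 3046 bp and 2918 bp on 2L, and 2985.5 bp and 2972 bp on 3R, and neither arm differed from 3L in the same direction in both replicates. The median score of 3L was 0.82 in replicate 1 and 0.76 in replicate 2, and lay above that of 2L by 0.006 and 0.025 and above that of 3R by 0.031 and 0.004. Over the replicates these differences were 0.016 ± 0.013 from 2L and 0.018 ± 0.019 from 3R. The exact permutation test, which does not pair the replicates, gave p = 0.667 for each. Both are smaller than the 0.058 by which the median of 3L fell from replicate 1 to replicate 2. The medians of 2L and 3R fell as well, so that shift is not the spread of the differences. Scores behave as base-2 logarithms of ratios, so that a step of 1 is a doubling.

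**Figure D1:**
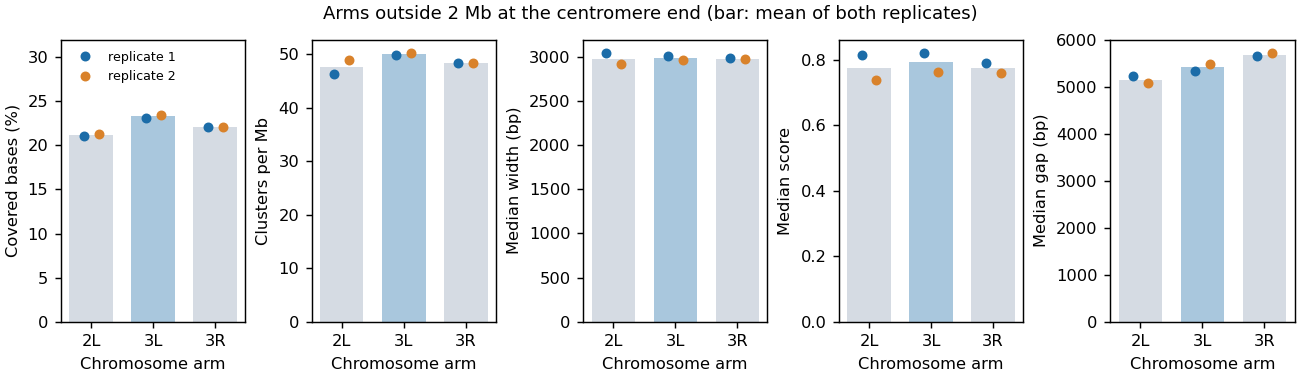
Covered bases (%), clusters per Mb, median width (bp), median score and median gap (bp) on 2L, 3L and 3R outside 2 Mb at the centromere end. Points are the 2 ChIP replicates and bars their mean. 3L has the highest points for covered bases (23.2% and 23.4%), while widths and scores overlap between arms.

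Clusters at least 10 kb wide were about as frequent on 3L as over all sequences. They numbered 101 (8.97%) on 3L in replicate 1 and 106 (9.36%) in replicate 2, against 9.07% and 8.77% over all sequences. They made up 31.6% and 32.2% of the covered sequence of 3L, against 28.3% and 27.4% on 2L and 32.4% and 30.9% on 3R. On 2L the share of such clusters was 8.51% and 7.68%, and on 3R it was 9.27% and 8.77%, so 3L lay on both sides of 3R. Clusters among the highest 10% of scores of their list were rarer on 3L than over all sequences, at 8.26% (93 clusters) and 7.33% (83 clusters) against 10% in each list. The shares on 2L were 7.38% and 6.61%, and those on 3R were 8.23% and 7.81%, so within a replicate 3L lay above 2L by 0.87 and 0.72 percentage points (0.80 ± 0.11) and differed from 3R by 0.03 and -0.49. The exact permutation test, which does not pair the replicates, gave p = 0.667 for 2L and p = 1 for 3R. All 3 of these arms thus share this shortfall.

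Along 3L, the covered share varied between dense and sparse stretches, which both replicates placed alike. In the 45 full windows of 500 kb, the mean covered share ran from 7.74% to 43.4%, and the SD between replicates had a median of 0.71 and a maximum of 2.38 percentage points. Across windows, the replicates had a Spearman's rho of 0.98. On 2L the range was 7.21% to 39.6% over 42 windows, and on 3R it was 8.33% to 52.5% over 51. At least 30% of a window's sequence was covered in both replicates in 11 windows of 3L, against 4 on 2L and 4 on 3R. This excess depends on the cutoff. The 3L window from 4000001 (31.9% and 30.1%) passed narrowly. Those from 13000001 on 2L (30.9% and 29.9%), 20000001 on 3R (30.02% and 29.65%) and 11000001 on 3L (29.9% and 30.9%) narrowly missed it. The lowest value in the 4 windows of 3R was 36.2%, from 16500001 in replicate 1. On the other arms, only windows from 500001 and 9000001 on 3L and from 1 and 9500001 on 2L exceeded it in both replicates. Under 15% was covered in both in 9 windows of 3L, 12 of 2L and 10 of 3R. No test was made over windows, which share their libraries.

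**Figure D2:**
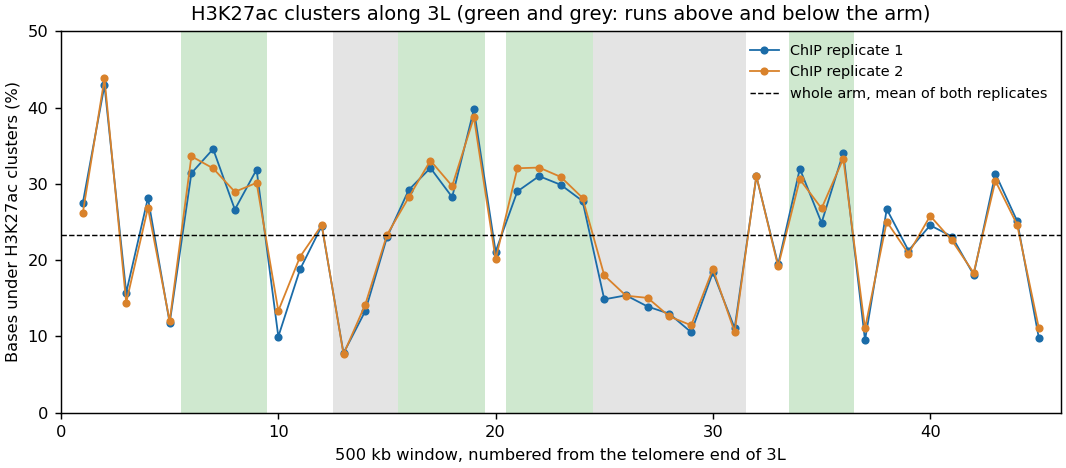
Share of bases under clusters (%) in 500 kb windows of 3L, numbered from the telomere end, in both ChIP replicates. The dashed line is the whole arm (23.3%), and shading marks runs of at least 3 windows above (green) or below (grey) each replicate's own share of the arm (23.2% and 23.4%). The longest shaded run is the sparse one from window 25 to 31.

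The densest window lay near the telomere, from 500001 to 1000000, with 42.9% covered in replicate 1 and 43.8% in replicate 2. It held 35 and 32 clusters, 5 and 6 of them at least 10 kb wide. Next came 9000001 to 9500000 (39.2% ± 0.74), which had fewer clusters (28 and 29) but 7 and 8 broad ones. The windows from 17500001 (33.7% ± 0.56), 3000001 (33.3% ± 1.79) and 8000001 (32.6% ± 0.69) lie within the spread of their neighbours in rank. The last of these reached its share with many narrower clusters, 43 and 39, of which 2 in each replicate were at least 10 kb wide. Dense windows were therefore of both kinds, with long domains or with many short clusters.

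The sparsest window was 6000001 to 6500000, with 7.80% covered in replicate 1 and 7.69% in replicate 2. It held 13 and 15 clusters, none of them 10 kb wide, with median scores of 0.62 and 0.57. The windows from 18000001 (10.3% ± 1.10), 22000001 (10.4% ± 0.91), 15000001 (10.8% ± 0.35) and 14000001 (11.002% ± 0.65) followed, and their order is not resolved. The window from 18000001 directly follows the dense one from 17500001, so coverage fell from 34.1% to 9.50% in replicate 1 and from 33.3% to 11.05% in replicate 2 across that border.

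Neighbouring windows formed 4 dense and 2 sparse runs of at least 3 windows on the same side of the arm's own covered share in both replicates. This rule for runs was set after the values were seen. The covered shares of adjacent windows were only weakly related, with a rho of 0.11 on 3L, 0.18 on 2L and 0.22 on 3R. Whether windows in random order would form as many runs was not tested. The dense runs were 2500001 to 4500000 (31.1% ± 0.05), 7500001 to 9500000 (32.4% ± 0.07), 10000001 to 12000000 (30.1% ± 0.99) and 16500001 to 18000000 (30.3% ± 0.07). Together they made up 33.3% of the arm and held 44.3% of its covered sequence in each replicate. The sparse runs were 6000001 to 7500000 (14.9% ± 0.25) and 12000001 to 15500000 (14.2% ± 0.48), with 22.2% of the arm and 13.5% and 13.9% of its covered sequence. The first sparse run reached 3 windows only narrowly. Its last window, from 7000001, was 22.99% and 23.30% covered, against 23.15% and 23.45% of the arm. The second sparse run, at 3.5 Mb, was the longest run of either kind on 3L, 2L or 3R. It held 33.7 and 38.0 clusters per Mb against 64.5 and 62.5 in the dense run from 7500001.

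The dense runs were not alike in strength. Clusters of the run from 7500001 had a median score of 0.94 in replicate 1 and 0.90 in replicate 2, whereas those of the run from 10000001 had 0.81 and 0.75. The latter run had fewer clusters per Mb (50.5 and 51.0) and slightly lower coverage. It holds 5 of the 10 widest regions of the arm, but fewer clusters of at least 10 kb (12 and 13) than the run from 7500001 (16 and 18). In the sparse run from 12000001 the medians were 0.77 and 0.66. Taking all windows, clusters among the highest 10% of scores made up 9.97% and 9.25% of those in windows above the arm's covered share and 5.20% and 4.42% of those in windows below it. On 3R the shares were 8.72% and 7.64% above and 8.00% and 8.25% below, and on 2L they were 7.74% and 7.08% above and 6.80% and 5.66% below. Wide clusters score higher and also raise coverage, so the sides of this comparison are not independent of score, and the difference between arms was not tested.

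Toward the centromere, coverage of 3L did not fall steadily within the stretch described. In segments of 2.5 Mb from the telomere end it was 24.9% ± 0.39, 27.3% ± 0.51, 17.8% ± 0.39, 30.0% ± 0.09, 27.4% ± 1.24, 14.5% ± 0.30, 23.7% ± 0.03, 23.2% ± 0.005 and 21.4% ± 0.06. The lowest segment was thus near the middle of the arm, from 12500001 to 15000000, and not at its inner end. It also had the lowest density, 34.8 ± 2.26 clusters per Mb, and the narrowest clusters, with a median width of 2691 ± 48.1 bp. The segment from 7500001 to 10000000 was highest in coverage, in density (62.0 ± 0.57 per Mb) and in median score (0.89 ± 0.04).

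At a scale of 100 kb, 17 of 225 windows of 3L were at least 50% covered in both replicates, and 8 (3.56%) held no cluster in either. On 2L there were 8 such dense windows of 210 and 14 empty ones (6.67%), and on 3R 19 dense ones of 259 and 10 empty ones (3.86%). The densest on 3L was 10300001 to 10400000, with 69.8% and 71.7% covered, most of it by the widest cluster of the arm. The window from 9400001 to 9500000 (69.3% and 65.1%) held 11 clusters in each replicate, 3 of them at least 10 kb wide. The windows from 11200001 (67.5% ± 0.55), 21800001 (65.4% ± 0.41) and 2800001 (64.1% ± 5.32) came between or after them.

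The strongest region of 3L lay from 19887006 to 19904441, with a score of 2.17 in replicate 1 and 2.06 in replicate 2. It measured 17452 bp and 17472 bp, stood 19422 bp and 10662 bp from its neighbours in replicate 1 and ranked 12 and 36 in the whole lists. The region from 13994069 to 14001749 followed, with 2.01 and 2.13, at a width of 7681 bp and 7818 bp. Its rank on the arm was 2 in replicate 1 and 1 in replicate 2, so the order of these regions is not resolved. The region from 14747359 to 14757191 scored 1.99 in each replicate. The last 2 regions both fall in the sparse run from 12000001 to 15500000, so strong clusters occurred within a run of low coverage. Coverage of the whole run does not describe the sequence next to them. In replicate 1 the region from 13994069 had neighbours 654 bp and 19292 bp away, and that from 14747359 had them 10222 bp and 10221 bp away.

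The other regions among the 10 of highest mean score were spread over the arm. They lay from 9044410 to 9061880 (1.98 ± 0.07), 3057288 to 3062222 (1.97 ± 0.001), 20999388 to 21008841 (1.95 ± 0.01), 16030057 to 16047000 (1.94 ± 0.06), 9411003 to 9421298 (1.93 ± 0.02), 747015 to 757778 (1.85 ± 0.01) and 11109854 to 11114899 (1.83 ± 0.02). The next region scored 1.82, so the last place is not resolved. Their mean widths ran from 5.05 to 19.0 kb, against a median of 3.51 kb over the shared clusters. The region from 3057288 was the narrowest of them, at 5134 bp and 4973 bp. Of the 10 regions, 8 were among the first 10 in both replicates. By their starts, 6 lay in windows above the arm's covered share, and 4 in windows below it. The region from 20999388 is counted as below, but most of it lies in the next window, from 21000001, which was above (30.9% ± 0.67). Beside these, the highest mean scores on 2L and 3R were 2.21 and 2.52, both above the 2.12 reached on 3L.

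The lowest mean score of a shared 3L cluster, 0.14 ± 0.04, was at 20021033 to 20022843. It was 1858 bp and 1811 bp wide and lay 18958 bp and 68649 bp from its neighbours in replicate 1. Over the shared clusters the median of the mean score was 0.85.

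The widest regions of 3L were a different set, with none among the 10 of highest score. The domain from 10313334 to 10369641 spanned 56330 bp in replicate 1 (score 1.44) and 56443 bp in replicate 2 (1.48). In replicate 1 it closed a chain of 4 clusters under 1 kb apart that spanned 65.5 kb from 10304119. A second domain, from 10217183 to 10254442, ended 58.9 kb before it and measured 37964 bp and 39824 bp at the lowest scores of the group (1.21 and 1.33). The domain from 21871263 to 21908686 was 38370 bp and 37424 bp wide, with a mean score of 1.59 ± 0.01.

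The remaining wide regions had mean widths of 25.7 to 29.7 kb. A pair of them, from 11230353 to 11258589 (28.3 ± 0.03 kb) and from 11263639 to 11292970 (29.7 ± 0.53 kb), was separated by 5049 bp in replicate 1. Another pair lay near the telomere, from 542256 to 569483 (27.6 ± 0.46 kb) and from 799472 to 822850, with widths of 24647 and 29332 bp. The region from 10651433 to 10678218 (27.1 ± 0.47 kb) had the highest mean score of the group, 1.82 ± 0.05, which placed it directly after the 10 strongest. The last 2 entries, from 17555329 (18357 bp) and from 17573887 (16441 bp) in replicate 1, were 452 bp apart and matched a single cluster of 35023 bp in replicate 2, so their mean widths depend on that gap. All 10 lay in windows above the arm's covered share, which their own width raises.

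**Figure D3:**
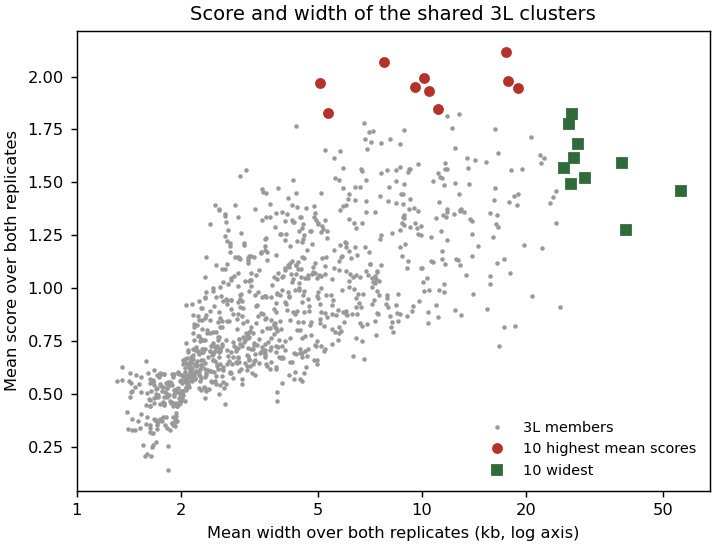
Mean score against mean width (kb, log axis) for the 1027 shared clusters of 3L, each point 1 region over both replicates. Red circles are the 10 highest scores (1.83 to 2.12) and green squares the 10 widest (scores 1.27 to 1.82). The red and green groups share no region.

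Score rose with width across 3L clusters, with a Spearman's rho of 0.84 in replicate 1 and 0.82 in replicate 2, close to 0.81 and 0.82 on 2L and 0.83 and 0.83 on 3R. Clusters under 2 kb (254 in each replicate) had median scores of 0.51 and 0.48, those of 2 to 5 kb (570 and 574) had 0.81 and 0.76, those of 5 to 10 kb (201 and 199) had 1.21 and 1.08, and those of at least 10 kb had 1.41 and 1.36. Within the last class rho was 0.24 in each replicate, and within 5 to 10 kb it was 0.29 and 0.21. It was 0.04 and -0.04 under 1.5 kb, 0.10 and -0.05 from 1.5 to 2 kb, and highest from 2 to 2.5 kb (0.56 and 0.62).

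The low end of the scores had a step at 2 kb. The 5th percentile was 0.27 in each replicate from 1.5 to 2 kb, and 0.53 and 0.50 from 2 to 2.5 kb. Medians rose without a single step. From 1.5 to 2, 2 to 2.5, 2.5 to 3 and 3 to 5 kb they were 0.49, 0.67, 0.81 and 0.96 in replicate 1. In replicate 2 they were 0.47, 0.62, 0.79 and 0.91. In replicate 1, 95% of clusters from 1.5 to 2 kb scored 0.62 or less and their lowest score was 0.15, whereas clusters from 2 to 2.5 kb began at 0.48 and had a median of 0.67. In replicate 2 the corresponding values were 0.62 and 0.11 below 2 kb, and 0.45 and 0.62 above it. The lowest score of replicate 2 was smaller again in wider clusters, at 0.38 from 2.5 to 3 kb and 0.33 from 3 to 5 kb. The narrowest cluster measured 1301 bp in each replicate. On 2L, clusters of 1.5 to 2 kb began at 0.18 and 0.15 and those of 2 to 2.5 kb at 0.51 and 0.44. On 3R they began at 0.10 and 0.06 and at 0.47 and 0.44, so the lowest scores of both of these arms rose at 2 kb too. No value here shows how the authors' thresholds bear on the step, and its cause was not tested.

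Spacing on 3L was uneven. The median gap between neighbouring clusters was 5348 bp in replicate 1 and 5504 bp in replicate 2, with quartiles of 1696 to 14849 bp and 1810.5 to 15041 bp. On 2L the medians were 5231 bp and 5085.5 bp, and on 3R they were 5654 bp and 5729 bp, so 3L lay between these arms in both replicates (exact permutation p = 0.333 against each). The difference from 2L, 267.75 bp, became -9.0 ± 166 bp with clusters within 500 bp merged and -577.5 ± 1279 bp for clusters at or above the median score of their list. It was 174 ± 338 bp with 1 Mb left out and 31.75 ± 294 bp for shared clusters. Each of these values had opposite signs in the replicates. With 1 Mb left out, the difference from 3R was -73.5 ± 177 bp, with opposite signs in the replicates (exact permutation p = 1). Gaps under 1 kb made up 16.4% and 16.2% on 3L, and 30.2% and 29.7% of clusters had such a close neighbour. The longest chains of clusters under 1 kb apart held 4 clusters, as from 4218952 to 4236149 in replicate 1 and from 948066 to 967763 in replicate 2.

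**Figure D4:**
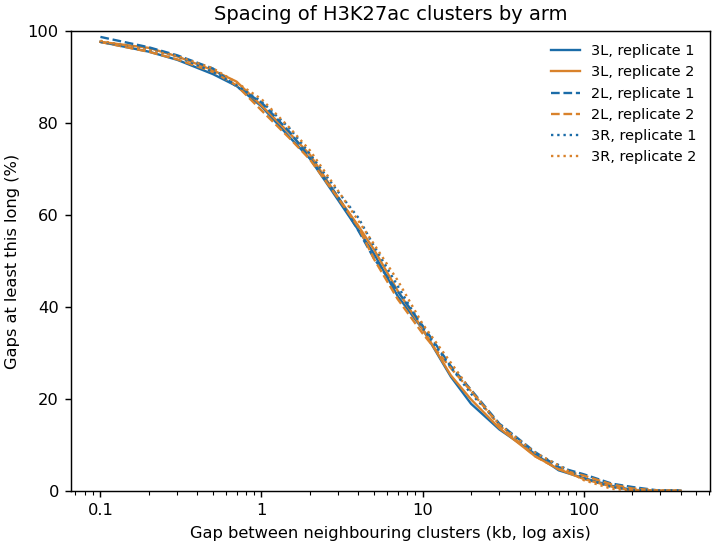
Share of gaps between neighbouring clusters (%) that are at least as long as the value on the x axis (kb, log axis), for 3L, 2L and 3R in each ChIP replicate. The 6 curves run close together, with medians from 5085.5 to 5729 bp.

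Long gaps took up much of the arm. Gaps of at least 50 kb numbered 90 and 85 on 3L and spanned 37.4% and 34.8% of it, against 40.7% and 37.8% on 2L and 37.0% and 36.3% on 3R. Stretches of at least 100 kb with no cluster in either list numbered 27 on 3L (16.4% of the arm), 33 on 2L (22.8%) and 29 on 3R (15.0%). The longest on 3L was 204 kb, from 9969726 to 10173617, and it ends 43.6 kb before the 38.9 kb domain that starts at 10217183. It begins in the window that separates the dense runs from 7500001 and from 10000001, but most of it lies inside the latter run. The others were 5360572 to 5554037 (193 kb), 15143281 to 15328398 (185 kb), 1970861 to 2149034 (178 kb) and 13507603 to 13665801 (158 kb). The longest such stretch was 236 kb on 2L and 405 kb on 3R.

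Clusters far from any neighbour were weaker. On 3L, 48 clusters (4.26%) in replicate 1 and 62 (5.47%) in replicate 2 had no neighbour within 20 kb, with median scores of 0.65 and 0.63 and median widths of 2355 bp and 2440.5 bp. Clusters whose nearest neighbour was 1 to 5 kb away (481 and 478) had the highest median scores, 0.86 and 0.82, and median widths of 3229 bp and 3215.5 bp. Those with a neighbour under 1 kb away had median scores of 0.81 and 0.74, and those at 5 to 20 kb had 0.81 and 0.73. Isolated clusters of 2L scored 0.70 and 0.66 and those of 3R 0.73 and 0.69. The scores of adjacent clusters on 3L were nearly unrelated, with a rho of 0.10 and 0.11.

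Shared clusters had similar edges and scores in both replicates. Among the 870 regions of 3L matched 1 to 1, starts differed by a median of 128 bp and ends by 124.5 bp, and widths had a rho of 0.93. Scores of the 1027 shared clusters had a Spearman's rho of 0.91 and a Pearson's r of 0.92, given as a description, since clusters of a library share its depth and input. The median change from replicate 1 to replicate 2 was -0.03, and 388 clusters (37.8%) scored higher in replicate 2. On 2L the median change was -0.04 and on 3R it was -0.03, close to that of 3L. The median absolute change on 3L was 0.09, and 90% of changes were within 0.24.

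**Figure D5:**
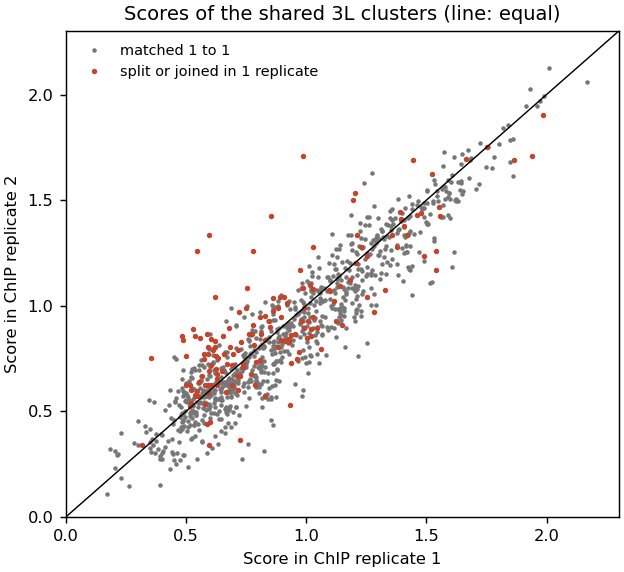
Score in ChIP replicate 2 against score in replicate 1 for the 1027 shared clusters of 3L, with the line of equal scores. Grey points are the 870 regions matched 1 to 1, red points the 157 split or joined in a replicate. The points farthest above the line are red.

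The largest increases came from clusters joined into wider ones. The region from 10255673 to 10257006 scored 0.59 at 1926 bp in replicate 1 and belonged to a cluster of 39824 bp scoring 1.33 in replicate 2. The same held for the regions from 5623373 (0.99 to 1.71), 2810686 (0.55 to 1.26), 793837 (0.85 to 1.42) and 2835035 (0.78 to 1.26), none of which was matched 1 to 1. Among regions matched 1 to 1, the largest increase was 0.35, from 20776876 to 20780486 (1.27 to 1.63).

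The largest decreases were in regions matched 1 to 1. The region from 1667466 to 1669377 went from 0.82 to 0.31 at nearly equal widths of 2174 bp and 1912 bp. Those from 17839457 (0.73 to 0.28), 5131307 (1.21 to 0.76), 7368405 (1.25 to 0.82) and 14029539 (1.61 to 1.18) followed. These changes are several times the median absolute change of 0.09, and they were picked as the extremes.

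Clusters in a single replicate were 99 in replicate 1 and 111 in replicate 2. Their median widths were 1573 bp and 1746 bp and their median scores 0.55 and 0.55, against 3293 bp and 0.87 for the shared clusters in replicate 1. None reached 10 kb. The highest-scoring of them in replicate 1 lay from 7584853 to 7586912 (0.85), 13796367 to 13798441 (0.84) and 20249406 to 20251097 (0.80). In replicate 2 they lay from 3794719 to 3798057 (0.77), 16230701 to 16233490 (0.75) and 11417772 to 11419877 (0.70). The cluster from 13796367 was 39238 bp from the nearest cluster of the other replicate, while that from 3794719 was 825 bp from one.

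The authors' list for the replicate set held 1313 clusters on the same stretch of 3L and covered 28.5% of it, against 26.0% of 2L and 26.6% of 3R. Each of the 1027 shared clusters overlapped it. Of its clusters on 3L, 910 (69.3%) overlapped both replicate lists, 90 only that of replicate 1 and 97 only that of replicate 2. Its strongest clusters on the arm were the same 3 regions that led by mean score, from 19886807 (2.10), 13993975 (2.05) and 14747102 (1.96).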

How the data were processed

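Reads of the H3K27ac ChIP and input libraries were aligned with Bowtie (version 0.12.7 in the submitters' processing notes), and positions are on FlyBase release 5, per the file headers. The authors deposited enrichment clusters with a start, an end and a score in lists for either ChIP replicate and for the replicate set. Per the labels, the input numbered like a ChIP library was its background. The caller, its thresholds and the score's formula are not given in the sources used. Differences from the commonest score of a list, raised to base 2, gave ratios of whole numbers (denominators up to 20000, relative tolerance 1e-12) for 100% and 99.97% of clusters. With base e the shares were 0.34% and 0.28%.

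Arm lengths came from the headers. Arms were cut 2 Mb from the centromere end, which on 3R is the low end. Each replicate 1 cluster was paired with the replicate 2 cluster sharing most bases, and gaps are bases between neighbouring clusters of a list. Arms were compared by exact permutation over the 2 replicates. Named regions are the 10 of highest mean score, the 10 widest, the 5 densest and sparsest windows, the 5 longest cluster-free stretches, the 3 strongest found in a single replicate and the 5 largest score changes each way. Segments, runs and 100 kb windows were added after values were seen. The members and rules were chosen with earlier results of these data known. Overlap, coverage and gap functions were tested on simulated data and were exact in 20 of 20 runs. Computations ran in Python 3.11.15 with scipy 1.17.1, pandas 2.3.3 and numpy 2.4.6, and figures in matplotlib 3.10.9.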

Additional observations from a re-analysis of the deposited data

Results flagged for a closer look

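On 3L, 216 clusters of the replicate-set list (16.5%, 95% Wilson interval 14.5 to 18.6) overlapped no cluster of either replicate list. They are outside the tests between arms, which use the replicate lists. Their median width was 1411.5 bp and their median score 0.37, while clusters overlapping both lists had 4209 bp and 0.80. The highest-scoring of them lay from 19850060 to 19851316 (0.58), 22330668 to 22331668 (0.52) and 3973011 to 3974220 (0.51). The shares on 2L and 3R were 16.9% and 15.5%.

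The replicate-set list also holds a region of 1668 bp marked as depleted, 1 in all over the sequences listed, on 3L from 11788126 to 11789793 with a score of -0.0053. It overlaps a weak cluster called as enriched in replicate 1, from 11788355 to 11789810 (score 0.29), and no cluster of replicate 2. It lies in the dense run from 10000001 to 12000000, where the next clusters of replicate 1 on either side, 4380 bp and 3033 bp away, score 1.04 and 0.88. In the replicate-set list itself the next enriched clusters are closer and weaker, 915 bp and 2621 bp away with scores of 0.20 and 0.68.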

How the results depend on the processing

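The covered share of 3L (23.3%) was 23.2% to 23.4% with either replicate left out, 22.7% and 23.6% with 1 Mb or 3 Mb left out, 16.7% for clusters scoring at or above their list's median, 22.5% for shared clusters, 28.5% in the replicate-set list and 51.3% as 10 kb windows holding a cluster. Its 50.1 clusters per Mb were 49.9 to 50.3 without a replicate, 48.8 and 50.6 at the other limits, 23.3 above the median score, 45.6 after merging within 500 bp, 45.4 for shared clusters and 58.2 in the replicate-set list. The median width (2985.5 bp) became 3028 bp with 3 Mb left out, 5224 bp above the median score, 3304 bp merged and 3293 bp shared, and was 2965 to 3006 bp without a replicate. The median score (0.79) was 0.76 to 0.82 without a replicate, 1.15 above the median score and 0.85 for shared clusters. The median gap (5426 bp) was 5348 to 5504 bp without a replicate, 12904.5 bp above the median score, 6191.5 bp merged and 5905.5 bp shared. The last choices remove or join clusters by construction. Shared clusters numbered 930 with 50% reciprocal overlap and 480 above the median score. The window range (35.6 points) was 46.6 with windows of 250 kb, 24.3 with 1 Mb and 35.1 to 36.1 without a replicate. The score relation was 0.93 for regions matched 1 to 1 and 0.93 with 50% reciprocal overlap.

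3L stayed above 2L and 3R in covered share under each alternative run. The difference in clusters per Mb from 3R became -0.50 with 1 Mb left out. The width difference from 2L (3.5 bp) was -40.0 to 47.0 without a replicate. Above the median score it was -111.0 ± 210, with opposite signs in the replicates. The width difference from 3R (6.75 bp) was -7.0 to 20.5 without a replicate, -144.5 ± 95.5 above the median score and -22.0 in the replicate-set list. It was 136.5 ± 33.2 merged and 109.25 ± 20.2 for shared clusters, positive in both replicates. The gap difference from 2L (267.75 bp) was -577.5 ± 1279 above the median score and -9.0 ± 166 merged, and that from 3R (-265.5 bp) was -73.5 ± 177 with 1 Mb left out. These gap values had opposite signs in the replicates. The cause of the changes listed here was not tested. Counts of shared clusters and the score relation need both replicates, so leaving a replicate out gives no value. Since the depth is unknown, what it changes was not tested. Differences between arms were taken within each replicate, and their SD is over those values. Between the ChIP and input groups, which share replicate numbers, no paired analysis was possible because the inputs entered through the authors' calls alone.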
